A study of Rattus norvegicus with 6 samples.

Results

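A set of 10 genes that mark the endothelium, the cell layer that lines blood vessels, were followed in neuron preparations of the rat dorsal root ganglion (DRG). The list was set by name as Vwf, Pecam1, Cdh5, Kdr, Flt1, Tek, Tie1, Cldn5, Eng and Egfl7. Its rule used no measured value, but earlier results of these data were known when the genes were chosen. Of the 10 genes, 9 were matched by gene name among the 25689 genes of the deposited table, and Pecam1 was not analysed here. All 9 passed the filter on low counts, which kept 14919 genes.

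The study asked how removal of the perirenal adipose tissue (PRATA) changes the sensory neurons that innervate it. RNA was sequenced from neurons of the L1-L2 DRGs of spontaneously hypertensive rats (SHRs), with 3 samples after PRATA and 3 after a sham operation. All rats were labelled wild type and 6 to 8 weeks old, while the study's methods give an older age at purchase, and the ganglia were taken 4 weeks after the operation. The ganglia were digested with enzymes, and neurons were separated from glia by how fast the cells attached to a culture dish, and no sort by a surface marker is described.

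Endothelial cells hold together through the adhesion molecule VE-cadherin (Cdh5) and the tight junction protein claudin-5 (Cldn5). They respond to vascular endothelial growth factor (VEGF) through Kdr and Flt1, to angiopoietins through Tek with its partner Tie1, and to bone morphogenetic proteins with the co-receptor endoglin (Eng). They also store and secrete von Willebrand factor (Vwf), the protein to which platelets attach, and deposit Egfl7 in the vessel matrix. Capillaries of the DRG are more permeable than those of the brain, and RNA of endothelial cells reaches a neuron preparation with the vascular cells that remain in it. Other cells also hold some of these genes, such as platelets for Vwf and fibroblasts for Eng. The cell source of the reads was not tested.

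Promoters of endothelial genes are often read by transcription factors of the ETS family, which recognise the core GGAA. The 250 bases before the transcription start were searched for GGAA on both strands (TTCC on the printed strand). Sequences came from the RefSeq promoter table of build GRCr8. Windows were found for Kdr, Flt1, Tie1, Cldn5, Eng and Egfl7, the last with 2 starts. Vwf, Tek, Cdh5 and Pecam1 were not matched. The windows of a pair of VEGF receptors, of Tie1 and of Cldn5 are shown, read 5′ to 3′ in the direction of the gene, with the core in capitals, because they span the highest and the lowest number of cores among these genes.
Kdr, chr14:32571813-32572062, plus strand: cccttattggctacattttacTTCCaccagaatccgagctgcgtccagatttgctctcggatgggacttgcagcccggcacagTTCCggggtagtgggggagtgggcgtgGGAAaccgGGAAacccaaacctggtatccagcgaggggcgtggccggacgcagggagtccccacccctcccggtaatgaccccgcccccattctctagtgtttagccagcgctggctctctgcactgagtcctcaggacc
Flt1, chr12:12333180-12333429, plus strand: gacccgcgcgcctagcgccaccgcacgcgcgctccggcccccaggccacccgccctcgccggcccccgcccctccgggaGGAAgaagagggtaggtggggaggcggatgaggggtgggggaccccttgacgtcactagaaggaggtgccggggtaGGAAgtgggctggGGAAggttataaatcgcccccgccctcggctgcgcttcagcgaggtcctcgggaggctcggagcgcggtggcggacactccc
Tie1, chr5:137304982-137305231, minus strand: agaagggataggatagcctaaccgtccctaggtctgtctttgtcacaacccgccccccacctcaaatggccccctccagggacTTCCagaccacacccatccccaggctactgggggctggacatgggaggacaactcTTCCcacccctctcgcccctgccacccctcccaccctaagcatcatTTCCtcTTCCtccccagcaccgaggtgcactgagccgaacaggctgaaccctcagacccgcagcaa
Cldn5, chr11:95718599-95718848, minus strand: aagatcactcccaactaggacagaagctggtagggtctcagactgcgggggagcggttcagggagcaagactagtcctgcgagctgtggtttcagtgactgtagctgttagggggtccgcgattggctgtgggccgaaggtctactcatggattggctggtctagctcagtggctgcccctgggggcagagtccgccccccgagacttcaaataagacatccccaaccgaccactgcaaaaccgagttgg
Kdr and Tie1 held 4 cores each and Flt1 held 3. Eng also held 3 cores, the Egfl7 windows held 3 and 2, and Cldn5 held 0. Of all 33469 promoter windows of this length, 93.2% held at least 1 core, with a median of 3, and 34.7% held 4 or more. The core is thus common in promoters at large, and a match of 4 letters is a description, not a binding site.

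Total counts ran from 5892967 in sham replicate 2 to 15226952 in sham replicate 1. A floor of 3 counts was worth 0.197 to 0.509 CPM (counts brought to one library total), and the 9 endothelial genes stood above it in all samples, with 12 to 613 counts each. Levels are given as CPM scaled by the trimmed mean of M values (TMM). Since they are not divided by transcript length, they were compared between samples and not between genes. A gene named below for the highest mean CPM of its list need not be the most abundant. In bulk RNA, fewer cells of a type and less RNA per cell cannot be told apart. The series' design counts 3 rats in each group, but no sample label names a rat, and p-values measure the spread between these samples. Markers of sensory neurons were present in every library, with a summed level between 10748 and 22496 CPM over 22 genes, and markers of satellite glia and Schwann cells summed to between 4046 and 9218 CPM over 12 genes.

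Over the 6 samples the endothelial genes ran in nearly the same order, and that order cut across the groups. In all 9 genes, PRATA replicates 2 and 3 and sham replicate 2 were the 3 highest samples, and sham replicate 3 was the lowest. The summed level of the 9 genes was 88.2, 158.6 and 200.8 CPM with PRATA, against 97.6, 228.8 and 43.5 CPM without it. Here and below, values of single samples stand in the order of their replicate numbers, which carry no rank. The sham group thus held both the highest and the lowest sum, and the PRATA group lay within that range. Sham replicate 2, with the highest sum, was also the library with the fewest counts, and the part of depth in this order was not tested.

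The same 3 highest samples were seen in 4.04% of all genes tested, sham replicate 3 was the lowest sample in 18.8%, and both held in 1.56%. These shares describe a pattern that was chosen after the values were seen, and the 9 genes are not independent of each other. From the lowest to the highest sample, single endothelial genes spanned between 3.94-fold (Eng) and 13.0-fold (Vwf), with a median of 6.35-fold. The median over all genes tested was 2.01-fold, and 14.5% of genes spanned at least as much as Eng.

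**Figure D1:**
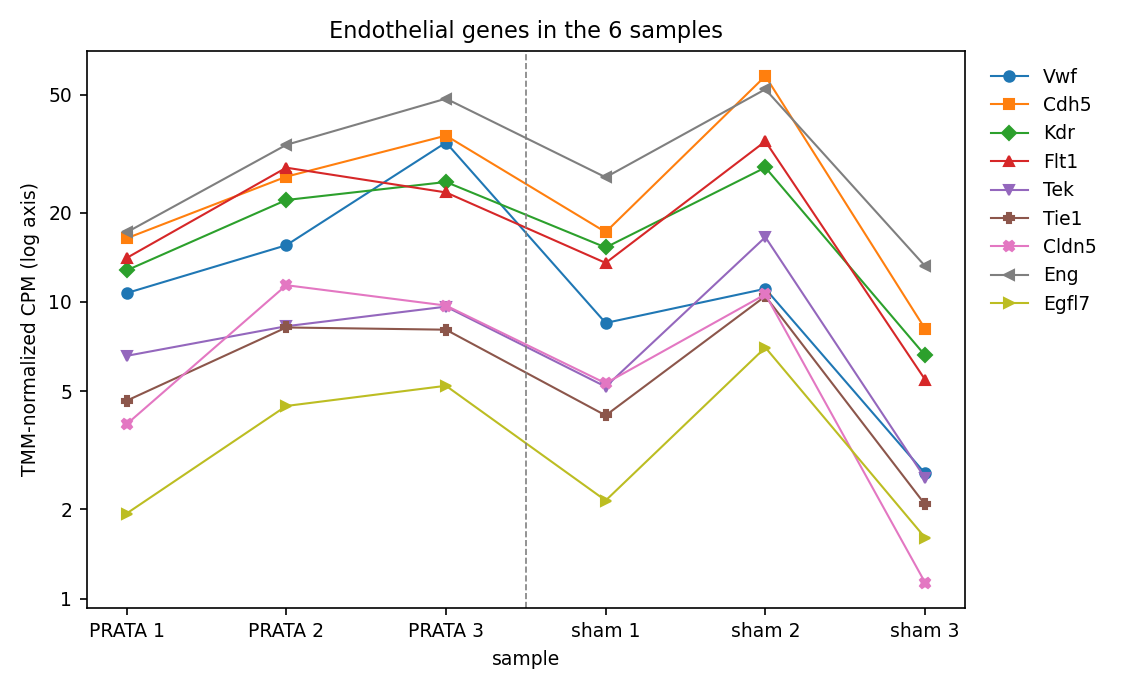
Level of the 9 endothelial genes in each sample, as TMM-normalized CPM on a log axis, with PRATA samples to the left and sham samples to the right of the dashed line. Lines join the values of 1 gene and carry no order in time. Sham replicate 3 was lowest for every gene, and Vwf was the only gene of the 9 with its highest value, 34.5 CPM, in PRATA replicate 3.

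Against this spread, PRATA and sham did not separate. Of the 9 genes, 0 passed 0.05 when edgeR's p-values were adjusted by Benjamini-Hochberg, as did 0% of all genes tested. DESeq2 and limma voom with sample quality weights, which called 728 and 1173 genes, and limma-trend, which called 0, also called 0 of the 9. DESeq2 gave no adjusted p for Egfl7, whose unadjusted p by DESeq2 was 0.828. At an unadjusted p under 0.05, 1 of the 9 genes (Vwf) was higher after PRATA and 0 were lower, against 8.19% of all genes higher and 10.1% lower, or 18.3% in either direction. The groups did not overlap in 0 of the 9 genes, against 22.8% of all genes, 11.6% with PRATA higher and 11.2% with PRATA lower. The median log2 fold change was 0.28 over the 9 genes and 0.02 over all genes tested, and 8 of the 9 estimates were positive.

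Vwf (ENSRNOG00000019689) had the largest estimate of the 9. It was at 10.7, 15.5 and 34.5 CPM in the PRATA samples, against 8.50, 11.1 and 2.64 CPM in the sham samples. PRATA replicates 2 and 3 exceeded every sham sample, and PRATA replicate 1 fell just under sham replicate 2. The means were 20.2 ± 12.6 CPM after PRATA and 7.41 ± 4.32 CPM after the sham operation (SD, n = 3 each). The log2 fold change was 1.47 ± 0.57 (SE), with a 95% interval from 0.16 to 2.78 and an adjusted p of 0.236 by edgeR with Benjamini-Hochberg adjustment. An exact two-sided permutation test of the CPM gave p = 0.20, where 3 samples against 3 cannot give less than 0.10. Without PRATA replicate 3 the log2 fold change was 0.85, and Vwf then no longer had an unadjusted p under 0.05, as was also so without sham replicate 1 (1.59) and without sham replicate 3 (1.07).

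The VEGF receptors Kdr and Flt1 did not separate the groups. Kdr (ENSRNOG00000046829), the main signalling receptor for VEGF-A, was at 12.8, 22.1 and 25.4 CPM after PRATA and at 15.3, 28.4 and 6.61 CPM after the sham operation. Flt1 (ENSRNOG00000000940), which binds VEGF tightly and can act as a decoy, was at 14.1, 28.4 and 23.4 CPM after PRATA and at 13.5, 34.8 and 5.48 CPM after the sham operation. In both genes the PRATA values lay between the lowest and the highest sham sample. The log2 fold change was 0.28 for Kdr, with a 95% interval from -0.83 to 1.39 and an adjusted p of 0.792 by edgeR with Benjamini-Hochberg adjustment. For Flt1 it was 0.32, with an interval from -1.01 to 1.65. These intervals hold a change of up to 2.62-fold higher for Kdr and 3.13-fold higher for Flt1, so the data do not show that the receptors were equal.

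The angiopoietin receptor Tek (ENSRNOG00000008587) was at 6.58, 8.29 and 9.65 CPM after PRATA, a narrow range. After the sham operation it was at 5.18, 16.5 and 2.55 CPM, so that the sham samples enclosed all PRATA samples. Its partner Tie1 (ENSRNOG00000020173), an orphan receptor that modulates Tek, was at 4.65, 8.21 and 8.07 CPM after PRATA and at 4.15, 10.5 and 2.08 CPM after the sham operation. Tek and Tie1 were thus spread far more widely between the sham samples than between the PRATA samples. Their log2 fold changes were 0.05 with an interval from -1.31 to 1.42 and 0.37 with an interval from -0.88 to 1.62.

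Cdh5 (ENSRNOG00000013324), the adherens junction cadherin of the endothelium, was at 16.4, 26.5 and 36.4 CPM after PRATA and at 17.2, 57.8 and 8.12 CPM after the sham operation. Sham replicate 2 was the highest sample by a wide gap. Its log2 fold change of -0.05, with an interval from -1.50 to 1.41, was the only negative estimate among the 9, and it was positive under 6 of 17 other settings. Cldn5 (ENSRNOG00000045811), a tight junction strand protein, was at 3.87, 11.4 and 9.73 CPM after PRATA and at 5.32, 10.6 and 1.13 CPM after the sham operation, the last from 12 counts. PRATA replicate 2 was highest, just above sham replicate 2. The log2 fold change was 0.59, with an interval from -0.99 to 2.18 and an adjusted p of 0.678 by edgeR with Benjamini-Hochberg adjustment.

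Eng (ENSRNOG00000050190), the co-receptor for bone morphogenetic proteins, was at 17.2, 33.9 and 48.5 CPM after PRATA and at 26.3, 52.1 and 13.2 CPM after the sham operation. Egfl7 (ENSRNOG00000019388), a secreted protein of the vessel matrix, was at 1.94, 4.46 and 5.22 CPM after PRATA and at 2.14, 7.02 and 1.61 CPM after the sham operation. Both genes ran from sham replicate 2 down through PRATA replicates 3 and 2, sham replicate 1 and PRATA replicate 1 to sham replicate 3, the same order as Kdr and Cdh5. Their log2 fold changes were 0.13 with an interval from -1.04 to 1.31 and 0.17 with an interval from -1.25 to 1.59.

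The sign of the median changed with the sham sample that was left out. Without sham replicate 2, 5 of the 9 genes (Vwf, Cdh5, Flt1, Tek and Tie1) had an unadjusted p under 0.05, all higher after PRATA, and the median log2 fold change was 1.07. In that fit 13.4% of all genes tested were higher and 14.1% were lower at the same threshold. Without sham replicate 3, 0 of the 9 had an unadjusted p under 0.05, and the median log2 fold change was -0.11. Over all genes, 3.76% were then higher and 5.57% lower. The groups did not overlap in 4 of the 9 genes (Flt1, Tek, Tie1 and Vwf, PRATA higher) without sham replicate 2, against 23.6% of all genes with PRATA higher and 22.1% lower, and in 1 (Vwf) without PRATA replicate 1, against 13.5% higher and 13.7% lower. An adjusted p under 0.05 was reached by 0 of the 9 genes with any of the 6 samples left out. The single-gene estimates moved the same way, with Cdh5 at 1.06 without sham replicate 2 and -0.48 without sham replicate 3.

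**Figure D2:**
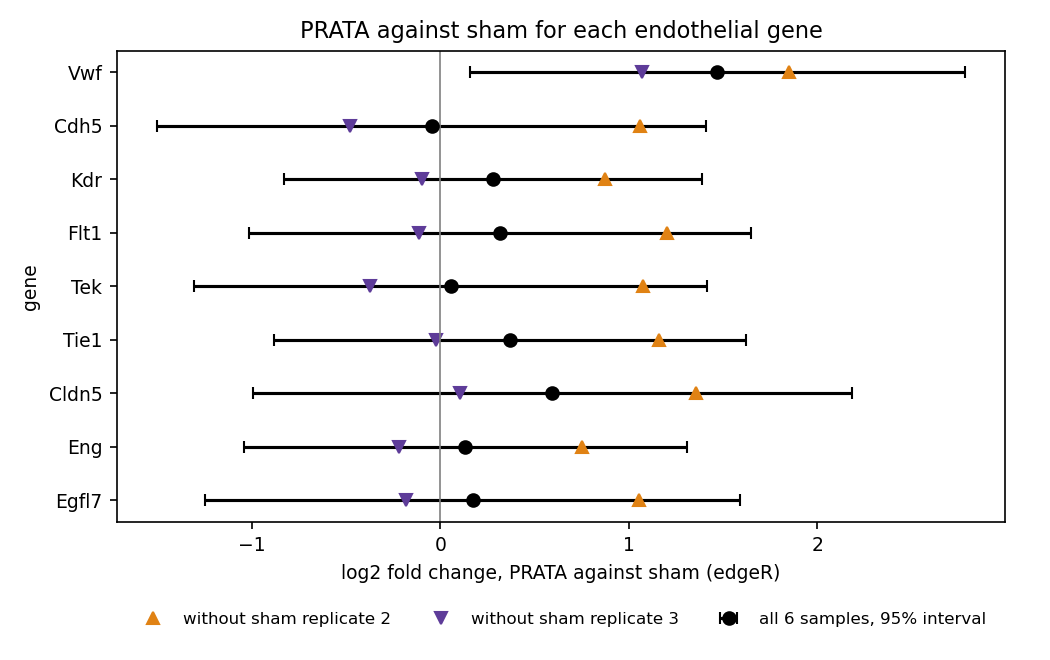
Log2 fold change of PRATA against sham for the 9 endothelial genes by edgeR, with circles and 95% intervals for all 6 samples and triangles for fits that leave out sham replicate 2 (pointing up) or sham replicate 3 (pointing down). The interval of Vwf lies above 0 and those of the other 8 genes hold 0, and every triangle pointing up lies to the right of its circle.

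The share of Vwf within the endothelial counts was compared after the values were seen, with Vwf taken as the gene of the largest estimate. Of the summed counts of the 9 genes, Vwf made up 12.2%, 9.79% and 17.2% in the PRATA samples, against 8.70%, 4.84% and 6.09% in the sham samples. Exact Clopper-Pearson 95% intervals, which cover counting error only, ran from 8.52% to 11.2% in PRATA replicate 2 and from 7.29% to 10.3% in sham replicate 1, the nearest samples of the groups, and so overlapped. The mean share was 13.0% ± 3.77 after PRATA and 6.54% ± 1.97 after the sham operation (SD, n = 3 each), and the groups did not overlap. Relative to the other 8 genes, Vwf was higher after PRATA by 1.10 on the log2 scale (exact two-sided permutation p = 0.10, the smallest that 3 samples against 3 can give). Leaving out each sample in turn gave values between 0.85 and 1.35. Vwf was picked from the 9 genes by its difference between these same samples. Neither the p nor these values are therefore a test of that difference.

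The groups overlapped for each of the other 8 genes when taken as a share of the same counts. Relative to the summed counts of the 9 genes, 0.067% of all genes tested had groups that did not overlap with PRATA higher, Vwf among these 10 genes, and 2.54% with PRATA lower. These shares are no measure of chance, since the summed counts vary so widely among the sham samples that a gene which does not follow them overlaps. Of the 21 other endothelial markers tested, 1 (Sox17) did not overlap with PRATA higher and 4 (Sox7, Erg, Cd34 and Calcrl) with PRATA lower. Taken gene by gene, the ratio of Vwf to Cdh5, to Kdr and to Eng was higher in each PRATA sample than in each sham sample. The ratio of Vwf to Flt1, Tek, Tie1, Cldn5 and Egfl7 overlapped between the groups. For Cdh5 the ratio was 0.654, 0.587 and 0.948 after PRATA and 0.494, 0.192 and 0.326 after the sham operation.

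**Figure D3:**
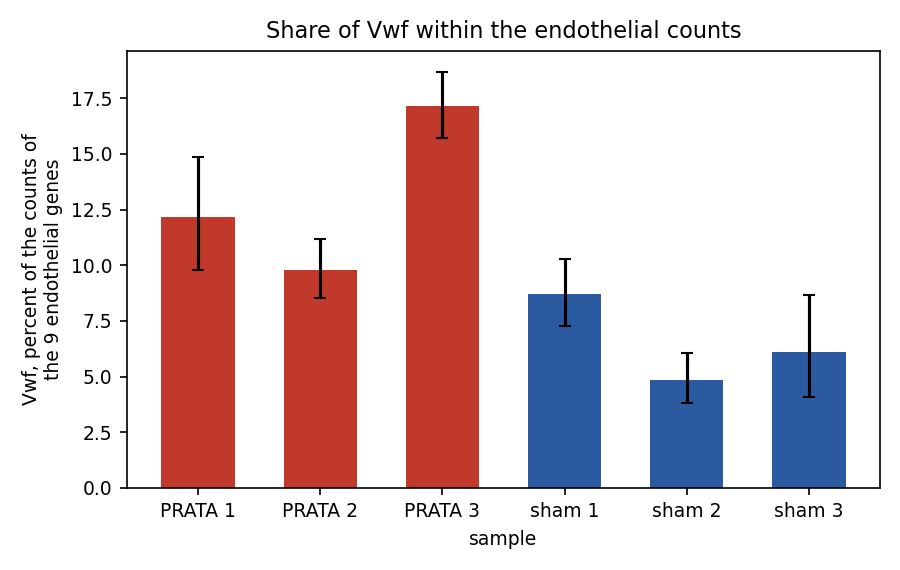
Vwf as a percentage of the summed counts of the 9 endothelial genes in each sample, with PRATA in red and sham in blue. Error bars are exact 95% binomial intervals for counting error. The sham bars end at 8.70% at most, below the lowest PRATA bar at 9.79%. Vwf was chosen for this plot after its values were seen.

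Of 24 other markers of endothelial cells, 21 were tested, and their median log2 fold change was -0.01. Of these, 13 had the same 3 highest samples as the 9 genes, 15 were lowest in sham replicate 3, and 10 showed both. At an unadjusted p under 0.05, Ramp2 was higher after PRATA, and Sox7 and S1pr1 were lower. Ramp2, a partner of the calcitonin receptor-like receptor (Calcrl), had a log2 fold change of 0.81 and was named after its value was seen. For this and the lists below, the share of all genes tested at that threshold was 8.19% higher and 10.1% lower. Sox7, a transcription factor of endothelial cells, was at 1.81, 4.46 and 5.46 CPM after PRATA and 9.26, 10.8 and 5.67 CPM after the sham operation, and its log2 fold change was -1.10. S1pr1, the receptor for sphingosine-1-phosphate, had means of 15.1 ± 2.06 and 21.0 ± 2.18 CPM (SD, n = 3 each) and a log2 fold change of -0.47. Podxl and Cd93, with the highest mean CPM of these markers, ranged from 18.4 to 48.1 CPM and from 7.18 to 62.4 CPM over the samples. Both were highest in sham replicate 2 and lowest in sham replicate 3. At an unadjusted p under 0.05, 7 of 23 tested markers were higher and 1 was lower without sham replicate 2. Without sham replicate 3, 0 of 24 were higher and 1 was lower. Over all genes, 13.4% were higher and 14.1% lower in the former fit, and 3.76% and 5.57% in the latter.

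The genes whose profile over the 6 samples lay nearest to the mean of the 9, by the mean squared distance of z-scored log2 CPM, were Mgme1, Ecscr, Vwc2, Ptprb and Zfp879, with distances between 0.0177 and 0.0283. Ecscr and Ptprb, the endothelial receptor phosphatase that acts on Tek, stood on the list of endothelial markers. Ptprb was at 13.0, 18.8 and 27.9 CPM after PRATA and at 14.2, 29.3 and 4.82 CPM after the sham operation. Among the 9 genes, Kdr lay nearest to their mean (0.00897) and Vwf farthest from it (0.255), and since each of the 9 is part of that mean its distance is too small.

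Ligands and co-receptors of the VEGF and angiopoietin pathways did not share the order of the receptors, with 1 of 9 tested genes having the same 3 highest samples. Nrp1, a co-receptor of Kdr that neurons also use to read semaphorins, was higher after PRATA at an unadjusted p under 0.05 (129.9 ± 24.5 against 92.9 ± 15.2 CPM, SD, n = 3 each, log2 fold change 0.48). Angpt2, the angiopoietin that antagonises Tek in most settings, was lower (10.5 ± 5.46 against 23.3 ± 9.01 CPM, log2 fold change -1.14). Its 3 sham values were 22.0, 14.98 and 32.9 CPM, and the PRATA values of 4.65, 15.5 and 11.4 CPM overlapped them. Nrp2, with the highest mean CPM of the list, ranged from 137.7 to 198.0 CPM.

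Of 11 tested genes of the endoglin pathway, 2 were higher and 3 were lower at an unadjusted p under 0.05. Over all genes tested, 8.19% were higher and 10.1% lower. The median log2 fold change of the 11 was 0.08. Smad1, which carries the signal of bone morphogenetic proteins to the nucleus, was at 54.7, 70.2 and 58.8 CPM after PRATA and at 46.6, 42.5 and 37.9 CPM after the sham operation. Id2, a target of that signal, was at 15.4, 20.2 and 17.3 CPM after PRATA and at 13.5, 8.43 and 10.4 CPM after the sham operation. In both genes every PRATA sample exceeded every sham sample, as in 11.6% of all genes tested, with log2 fold changes of 0.53 and 0.70. Tgfbr1, Smad4 and Id3 were lower, with log2 fold changes of -0.53, -0.52 and -0.81, and were named after their values were seen. The type II receptor Bmpr2, with the highest mean CPM of the list, ranged from 177.9 to 247.9 CPM.

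The 11 junction partners of Cdh5 and Cldn5 include many that other cell types also express. At an unadjusted p under 0.05, 1 was higher and 3 were lower, against 8.19% and 10.1% of all genes. The median log2 fold change was -0.15. Jup (plakoglobin) was at 220.4 ± 25.1 CPM after PRATA and 151.4 ± 34.9 CPM in sham samples (SD, n = 3 each), and its log2 fold change was 0.54. Jam3, a junctional adhesion molecule, was at 21.4 ± 3.02 and 36.9 ± 7.78 CPM, a log2 fold change of -0.79. Ctnna1 (alpha-catenin) and Jam2 were the other lower genes, at -0.60 and -0.58, the latter named after its value was seen. Ctnnb1 (beta-catenin), which links cadherins to alpha-catenin, had means of 195.0 ± 21.9 and 206.3 ± 14.5 CPM.

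Of 13 tested markers of arterial, venous and capillary endothelium, 2 were higher and 1 was lower at an unadjusted p under 0.05. Over all genes tested, 8.19% were higher and 10.1% lower. Of these 13 markers, 1 had the same 3 highest samples as the endothelial genes, and 7 were lowest in sham replicate 3. For the 21 other endothelial markers these numbers were 13 and 15. Most of this list thus did not share the 3 highest samples, and the cell source of its genes was not tested. Aqp1, a water channel, was at 67.8, 53.7 and 84.3 CPM after PRATA and at 38.8, 47.3 and 37.9 CPM after the sham operation (log2 fold change 0.73), and Rgcc was higher by 1.44 on the log2 scale, named after its value was seen. Vcam1, an adhesion molecule for leukocytes, was at 29.4, 29.6 and 25.1 CPM after PRATA and at 52.0, 32.0 and 51.8 CPM after the sham operation (-0.69). Slc2a1 and Sema3g, with the highest mean CPM of the list, ranged from 92.2 to 207.5 CPM and from 41.2 to 74.3 CPM. Of the 5 markers of lymphatic endothelium, 2 were lower at an unadjusted p under 0.05, with log2 fold changes of -1.62 for Reln and -1.33 for Pdpn, and both genes are also expressed outside lymphatic vessels. The defining lymphatic genes Prox1 and Lyve1 stood at 1.27 to 5.93 and 1.94 to 5.18 CPM.

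The counts of these lists moved with the sham samples, as did those over all genes. At an unadjusted p under 0.05, 3.76% of all genes were higher and 5.57% lower without sham replicate 3. Without sham replicate 2, 13.4% were higher and 14.1% lower, and 721 of 15438 genes had an adjusted p under 0.05 in edgeR. Without sham replicate 3, at an unadjusted p under 0.05, 0 of 9 VEGF and angiopoietin genes, 1 of 11 endoglin pathway genes (lower), 1 of 11 junction genes (lower) and 1 of 13 subtype genes (higher) were past the threshold, and 2 of 5 lymphatic genes were lower, as with all samples. Without sham replicate 2, 0 VEGF and angiopoietin genes were higher and 1 was lower, 2 endoglin pathway genes were higher and 4 lower, 2 junction genes were higher and 3 lower, 3 subtype genes were higher and 2 lower, and 3 lymphatic genes were lower. An adjusted p under 0.05 in edgeR with Benjamini-Hochberg adjustment was then reached by 0 VEGF and angiopoietin genes, by 1 gene each of the endoglin, junction and subtype lists and by 2 lymphatic genes. The test also mattered for single genes. Jam3, Reln, Pdpn, Itgb3, Sox10, Pou4f1, Prdm12 and Ntrk2 had an adjusted p under 0.05 with both DESeq2 and limma voom with sample quality weights. Of them, 0 did with edgeR on all samples. They were named with their edgeR p known, and DESeq2 and voom called 728 and 1173 genes of the whole table.

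Other cells of the vessel and the blood were read through lists of their markers. Pericyte and smooth muscle genes summed to between 710.7 and 861.4 CPM after PRATA and between 545.5 and 1076.0 CPM after the sham operation, and 0 of 12 had an unadjusted p under 0.05. Much of these sums was Mcam, an adhesion molecule that endothelial cells also carry. Mcam was at 510.0 ± 31.4 CPM after PRATA and 572.2 ± 173.2 CPM after the sham operation (SD, n = 3 each). Of these 12 genes, 0 had the same 3 highest samples as the 9 endothelial genes.

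Platelets also carry von Willebrand factor. Of 10 platelet and megakaryocyte genes, 3 passed the filter, 3 were under 3 counts in every sample (Ppbp, Gp1bb and Treml1), and the summed level was 7.23 to 10.3 CPM after PRATA and 12.6 to 20.4 CPM after the sham operation. Much of this sum was Itgb3, which endothelial cells also express, and without Itgb3 the sum was 3.74, 4.54 and 4.82 CPM after PRATA and 7.46, 6.71 and 2.83 CPM after the sham operation, so that the groups overlapped. Pf4, a defining platelet gene, had 2, 2 and 9 counts after PRATA and 17, 0 and 4 counts after the sham operation, and Itgb3 had a log2 fold change of -1.30. The part of platelets in the level of Vwf was not tested.

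Red blood cell genes varied most between the samples. The 5 genes summed to 7.49, 66.8 and 1046 CPM after PRATA and to 155.5, 246.9 and 3.59 CPM after the sham operation. Hbb (beta-globin) was at 0.90, 18.1 and 221.5 CPM after PRATA and at 31.2, 48.2 and 0.66 CPM after the sham operation. PRATA replicate 3 and sham replicate 2 were the 2 highest samples and sham replicate 3 and PRATA replicate 1 the 2 lowest, as in the endothelial sum. Between them, sham replicate 1 exceeded PRATA replicate 2 in the red blood cell sum, while the reverse held in the endothelial sum. Of the 5 red blood cell genes, 0 had the same 3 highest samples as the endothelial genes, and 4 were lowest in sham replicate 3. PRATA replicate 3 was the highest sample for both Hbb and Vwf. The part of residual blood in the endothelial levels was not tested.

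Leukocyte genes summed to between 87.4 and 324.2 CPM after PRATA and between 73.6 and 179.8 CPM after the sham operation, with 1 of 11 (Lyz2, log2 fold change 1.14) higher at an unadjusted p under 0.05. Fibroblast genes summed to between 347.4 and 2020 CPM after PRATA and between 926.0 and 1874 CPM after the sham operation, with 0 of 9 past that threshold. At the same threshold, 1 of 12 glial genes was lower (Sox10, -1.63). Of 22 sensory neuron genes, 7 were higher and 1 was lower (Ntrk2, -1.04, named after its value was seen). Pou4f1 (1.02) and Prdm12 (0.72) had the smallest p of the 22. Over all genes tested, 8.19% were higher and 10.1% lower. The neuron sum was 21689, 14929 and 22496 CPM after PRATA and 10748, 15877 and 13225 CPM after the sham operation, and 0 of the 22 neuron genes had the same 3 highest samples as the endothelial genes. With the mean log2 level of the neuron genes subtracted in each sample, the median log2 difference of the 9 endothelial genes was -0.06. Their part in the endothelial levels was not tested.

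**Figure D4:**
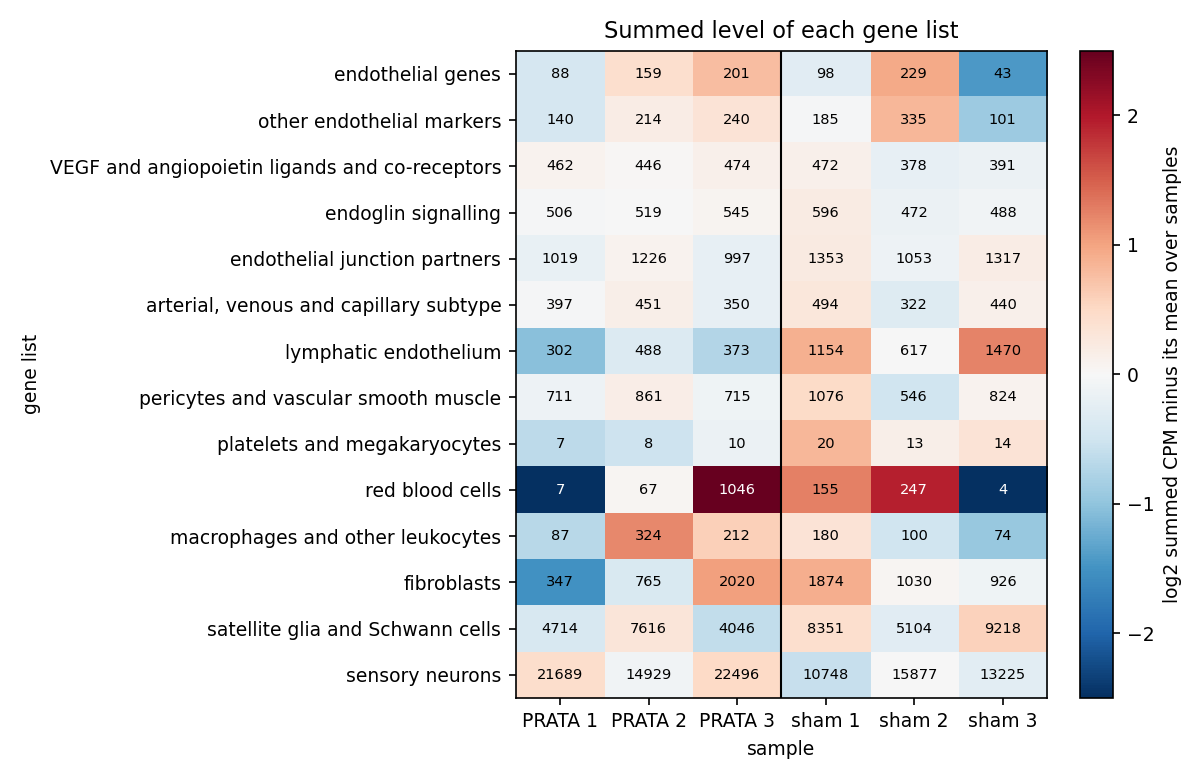
Summed level of each gene list in each sample. Numbers are summed CPM, and colours show log2 summed CPM minus its mean over the 6 samples, with colours saturated beyond 2.5 in either direction. The rows of the endothelial genes and of the other endothelial markers run together, with sham replicate 3 lowest in both (43.5 and 100.7 CPM), and the row of red blood cells spans the widest range.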

How the data were processed

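RNA of L1-L2 DRG neurons was sequenced in 3 PRATA and 3 sham samples of SHRs. The deposited table holds raw gene counts that the authors made from the reads, without normalization. The submitters' processing notes name STAR 2.7.3a, RSEM and DESeq2, while the study's methods name HISAT2, StringTie and Cuffdiff. Which of these made the counts, the genome build, the annotation, the strand setting and the treatment of reads from several places are not given in the sources used here. The number of columns of sample values not used was 0.

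The analysis ran in R 4.3.3, using the packages edgeR (4.0.16), limma (version 3.58.1) and, as an alternative, DESeq2 (version 1.42.0). Genes that passed filterByExpr (minimum count 10, minimum total 15) were scaled by TMM and compared by the two-sided quasi-likelihood test without covariates, with Benjamini-Hochberg adjustment over 14919 genes. Totals of 5892967 to 15226952 counts limit low genes, most in sham replicate 2. The floors and the Clopper-Pearson intervals of the shares cover counting error only. The intervals of the log2 fold changes come from the edgeR fit and include the spread between samples. Groups came from the sample titles.

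The genes, the lists and the tests were chosen with earlier results of these data known, and the lists were written from general knowledge. Of 177 list entries, 171 were matched by gene name, Car4 among them by its older symbol Ca4. Beside the 10 genes, the rule named the 2 genes of highest mean level and the 2 of smallest p in each list, and any with an adjusted p under 0.05. A fold change is printed only for those with an unadjusted p under 0.05. The edgeR, replicate block, DESeq2 and limma fits were run on data simulated with a single dispersion and no spread shared between genes. Such data cannot tell which fit suits the spread seen in these samples. Alternatives were other scalings, filters and tests, the replicate block, each sample left out, PRATA replicate 3 and sham replicate 1 both left out, and protein-coding genes alone. The shares of Vwf, levels relative to the other endothelial genes and list counts without sham replicate 2 or 3, shares over all genes with a sample left out and the platelet sum without Itgb3 were added after seeing the data. Plots were made in matplotlib 3.10.9 under Python 3.11.15.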

Additional observations from a re-analysis of the deposited data

How the results depend on the processing

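An adjusted p under 0.05 was reached by 0 of the 9 genes under each of 17 alternatives, while the genes called over the whole table numbered 728 with DESeq2, 1173 with voom and sample quality weights, 13 with PRATA replicate 3 and sham replicate 1 both left out, and 0 to 721 with 1 sample left out. Egfl7 had no adjusted p under DESeq2. Genes at an unadjusted p under 0.05 numbered 2324 higher and 2282 lower with voom, and 548 to 2073 higher and 858 to 2181 lower with 1 sample left out. With library size alone, 835 were higher and 1676 lower, so that 33.3% of such genes were higher, against 44.7% with TMM. Of the 9 genes, the number at an unadjusted p under 0.05 was 0 with PRATA replicate 3 and sham replicate 1 both left out and 0 to 5 with 1 sample left out. The number whose groups did not overlap was 1 without a filter, 1 relative to the summed counts of the other 8 genes, and 0 to 4 with 1 sample left out. The log2 fold change of Cdh5 was 0.013 without a filter, 0.32 with limma-trend and 0.82 with voom. That of Tek was -0.026 with library size alone, and Tek, Eng and Egfl7 were at -0.31, -0.33 and -0.36 with PRATA replicate 3 and sham replicate 1 both left out. With 1 sample left out, it ranged from -0.48 to 1.06 for Cdh5, -0.10 to 0.88 for Kdr, -0.11 to 1.20 for Flt1, -0.37 to 1.07 for Tek, -0.022 to 1.16 for Tie1, -0.24 to 0.75 for Eng and -0.18 to 1.05 for Egfl7. Vwf (0.85 to 1.85, adjusted p 0.0756 to 0.559 over edgeR, limma and DESeq2 fits) and Cldn5 (0.11 to 1.49) kept their sign under all 17. Replicate numbers of the groups share only a number (correlation of deviations from the group means -0.35, -0.04 and -0.35), and with the replicate block 621 genes were higher and 907 lower at an unadjusted p under 0.05, 0 of the 9 among these, and Cdh5 was at 0.27. The cause of these differences was not tested. Of 24 named genes outside the 9, 0 had an adjusted p under 0.05 with edgeR on all 6 samples, 8 with DESeq2, 11 with voom and 9 without sham replicate 2. The lowest counts, 12 for Cldn5 in sham replicate 3 and 15 for Egfl7 in PRATA replicate 1, limit the precision.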

Other observations

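Relative to the summed counts of the 9 endothelial genes, 10 genes were higher in each PRATA sample than in each sham sample, and beside Vwf these were Alkal2, Ca9, LOC690276, Sox17, Ncmap, AABR07065531.3, Plcg2, Fancg and Ptprh. Sox17, a transcription factor of arterial endothelium, was at 0.90, 2.95 and 2.06 CPM after PRATA and at 0.55, 2.19 and 0 CPM after the sham operation, close to the level of a few counts. Among the other endothelial markers, Sox7, Erg, Cd34 and Calcrl were lower in each PRATA sample than in each sham sample on the same scale, as was Acvrl1, the receptor that pairs with endoglin. In CPM, Cd34 was at 6.84, 11.5 and 12.0 after PRATA and at 11.8, 17.8 and 4.35 after the sham operation, and these groups overlapped. Nos3, the endothelial nitric oxide synthase, was at 1.94, 4.14 and 4.90 CPM after PRATA and at 2.28, 9.99 and 1.98 CPM after the sham operation. These genes were named after their values were seen.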
